A study of Caenorhabditis elegans with 2 samples.

Results

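The genes described here are 5 SL2 spliced leader RNA genes of Caenorhabditis elegans, sls-2.1, sls-2.2, sls-2.4, sls-2.8 and sls-2.9. They were chosen by the deposited peaks of a ChIP-seq experiment: each had the summit of at least 1 peak within 500 bp of its annotated start site. The genome annotation holds 18 genes named sls-2, so the other 13 had no such peak. Over all 46926 annotated genes, 3.6% had a peak by the same rule. Because the peaks chose the genes, their presence and height are given as a description and were not tested.

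The experiment mapped where the zinc finger protein ZTF-4, tagged with eGFP, was recovered from the genome of whole L2 larvae. Both libraries came from strain OP322, whose genotype is unc-119(ed3) III with the transgene wgIs322, and the worms were of mixed sex and of unrecorded age. The labels name 2 biological replicates of this 1 group. They list a control but give no other genotype, treatment or stage, so the only comparisons possible are between genes, between lists of regions and between replicates. The recovered protein was the tagged one, carried by 1 strain, and the signal is an average over every cell of the larva.

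In C. elegans most messenger RNAs receive a short leader from a separate small RNA by trans-splicing. SL1 goes mainly to the first gene of a transcription unit, and SL2 and its variants go mainly to downstream genes of operons. Each SL RNA carries the leader at its 5′ end, followed by a 5′ splice site and a remainder that is discarded after splicing. The genes are small, are transcribed by RNA polymerase II, and are annotated here with the biotype snRNA. SL1 RNA genes (sls-1) sit in a tandem repeat with 5S ribosomal RNA genes, and SL2 RNA genes are scattered.

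The leader was read as the bases up to the first AG followed by GT, and by this reading the 18 genes encode 11 distinct leaders. The sequences below show how the genes with peaks compare with each other and with 2 genes that had none, sls-2.3 and sls-2.10. They are from the RefSeq genome on build WBcel235 (ce11), 5′ to 3′ on the strand of the gene, with the leader in capitals. The genes lie at chrII:5844865-5844974 on the plus strand (sls-2.1), chrII:5543598-5543707 plus (sls-2.2), chrII:5544164-5544273 minus (sls-2.3), chrIII:12250465-12250575 plus (sls-2.8) and chrIV:9130721-9130829 minus (sls-2.10).
sls-2.1: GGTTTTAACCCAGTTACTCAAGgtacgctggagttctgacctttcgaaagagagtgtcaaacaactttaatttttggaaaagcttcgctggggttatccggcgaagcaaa
sls-2.2: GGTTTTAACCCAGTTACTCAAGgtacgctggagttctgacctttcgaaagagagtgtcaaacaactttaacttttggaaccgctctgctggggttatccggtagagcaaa
sls-2.3: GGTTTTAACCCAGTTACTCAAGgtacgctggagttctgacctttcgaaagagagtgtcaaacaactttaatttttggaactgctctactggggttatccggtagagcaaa
sls-2.8: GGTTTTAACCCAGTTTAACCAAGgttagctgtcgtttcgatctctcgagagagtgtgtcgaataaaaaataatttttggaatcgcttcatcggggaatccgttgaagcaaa
sls-2.10: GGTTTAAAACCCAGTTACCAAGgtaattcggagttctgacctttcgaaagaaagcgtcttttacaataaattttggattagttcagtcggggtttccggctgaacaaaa

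The genes with the 3 highest peaks (sls-2.1, sls-2.4 and sls-2.2) share 1 leader of 22 bases, the sequence usually written as SL2. The only other gene with that leader is sls-2.3, which had no peak. The leader of sls-2.8 is 23 bases long and that of sls-2.9 is 21 bases long, and neither occurs in another sls-2 gene. The other 12 genes without a peak divide into 8 further leaders, such as that of sls-2.10, which is shared with sls-2.11. Between sls-2.3 and sls-2.2 the RNA genes differ at 3 of 110 positions, which are T71C, T81C and A87G (the base of sls-2.3 first, positions counted from 1 at the first base of the leader). The run ATTTTTGG, searched on the strand of the RNA, was present in 13 of the 18 genes and in 4 of the 5 with peaks. The member without it was sls-2.2.

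Promoters of the same genes are shown because runs shared by several members lie there. These are the 100 bases before the start site, at chrII:5844765-5844864 (sls-2.1), chrII:5543498-5543597 (sls-2.2), chrII:5544274-5544373 (sls-2.3), chrIII:12250365-12250464 (sls-2.8) and chrIV:9130830-9130929 (sls-2.10), on the strand of each gene. Capitals mark runs of at least 8 bases found at the same distance from the start in at least 3 of the 5 members.
sls-2.1: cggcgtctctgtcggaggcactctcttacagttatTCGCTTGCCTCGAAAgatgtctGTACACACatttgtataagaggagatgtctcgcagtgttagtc
sls-2.2: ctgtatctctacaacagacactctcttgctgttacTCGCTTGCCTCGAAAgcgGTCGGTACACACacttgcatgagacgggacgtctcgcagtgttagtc
sls-2.3: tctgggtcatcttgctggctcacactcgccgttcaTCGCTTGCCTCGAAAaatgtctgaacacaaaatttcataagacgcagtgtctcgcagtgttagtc
sls-2.8: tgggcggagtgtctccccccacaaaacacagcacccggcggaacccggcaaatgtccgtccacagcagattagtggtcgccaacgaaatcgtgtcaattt
sls-2.10: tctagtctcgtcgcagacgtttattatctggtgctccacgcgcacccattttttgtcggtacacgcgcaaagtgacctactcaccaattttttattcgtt

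The overlapping runs of 12 bases join into TCGCTTGCCTCGAAA, 15 bases from -65 to -51 (the start site is 0 and upstream is negative). It stood at that place in sls-2.1 to sls-2.4, and searched on both strands it occurred 4 times in the whole genome. In 57127 promoters of 300 bp (250 before to 50 after a start site) it was found in 4, or 0.0070%. The run GTACACAC stood from -43 to -36 in sls-2.1, sls-2.4 and sls-2.2, and in 0.597% of all promoters on either strand. It was not in the promoter of sls-2.3. GTCGGTACAC, which overlaps it, stood from -47 to -38 in sls-2.9, sls-2.4 and sls-2.2, lay 1 base nearer the start in sls-2.10 and sls-2.11, which had no peak, and was found in 0.0473% of promoters. The promoter of sls-2.8 held no exact copy of these runs, and near matches were not searched in any gene. The runs were picked because members share them at a fixed place, and the shares over promoters count a run at any place, so these shares are no test. A match is a description of the letters and not evidence of a bound site.

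The loci of sls-2.1, sls-2.4 and sls-2.2 were most alike in the RNA gene. Over the gene they were 90.9 to 96.4% identical in pairs, against a median of 78.2% over all 153 pairs of the family. Over 300 bp upstream they were 67.3 to 70.3% identical, against a median of 60.7%. Some pairs without peaks were as alike or more so: sls-2.10 and sls-2.11 were 99.1% identical in the gene and 93.7% upstream, and sls-2.14 and sls-2.15 were 93.8% and 72.3%. Over 300 bp downstream of the gene sls-2.1, sls-2.4 and sls-2.2 were 57.3 to 62.3% identical, against a median of 59.7%. Identity was the share of identical bases in a global alignment. The RNA gene of sls-2.8 was at most 84.7% identical to any other, and that of sls-2.9 at most 81.7%.

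**Figure D1:**
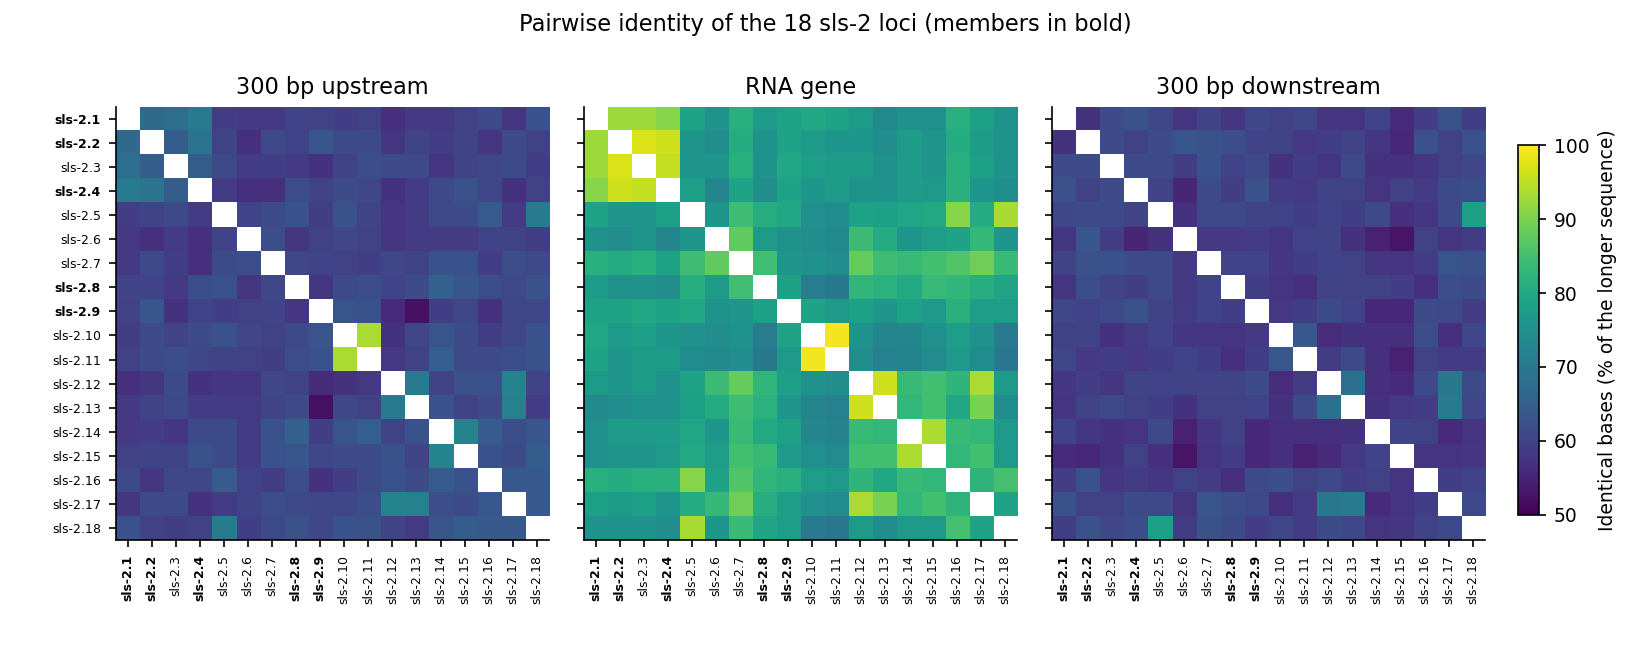
Percent identity between each pair of the 18 sls-2 loci in 300 bp upstream, in the RNA gene and in 300 bp downstream (colour scale from 50 to 100%, names of the genes with peaks in bold). The block of sls-2.1 to sls-2.4 is bright in the gene (90.9 to 97.3%), fainter upstream (64.7 to 70.3%) and not visible downstream (57.3 to 62.3%).

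Peak heights fell into 3 levels. The signal values are the authors' own, rank regions only within a list, and carry no replicate error of their own. Of the 1794 peaks of the thresholded list, whose signals ran from 60.2 to 843, the highest at sls-2.2 ranked 9 (signal 408), that at sls-2.4 ranked 10 (399) and that at sls-2.1 ranked 13 (383). The peak at sls-2.8 ranked 193 (162), and that at sls-2.9 ranked 1778 (60.3), just inside the end of the list. The median peak had a signal of 83.0, so the signal at 4 of the 5 genes was above it. Just outside the list stood sls-2.6, whose region ranked 1997 in the pooled list with a signal of 56.7. The summit of that region was at -307. A start site of the protein-coding gene hgo-1, which holds sls-2.6, is 195 bp from that of sls-2.6.

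Both replicates put the 5 genes in the same order of signal, sls-2.2 first, then sls-2.4, sls-2.1, sls-2.8 and sls-2.9. The highest region at sls-2.1 had a signal of 175 in replicate 1 (rank 15 of 30000) and 199 in replicate 2 (rank 18). That at sls-2.2 had 193 (rank 11) and 211 (rank 12). That at sls-2.4 had 178 (rank 14) and 201 (rank 15). These 3 genes were thus among the first 18 regions of either replicate, and their ranks did not overlap with those of sls-2.8 or sls-2.9. For sls-2.8 the signals were 60.1 (rank 359) and 101 (rank 147).

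By rank, the replicates differed most at sls-2.9. Its highest region had a signal of 38.5 in replicate 1 (rank 1033) and 24.3 in replicate 2 (rank 3707). The first 1794 regions of each replicate are as many as the thresholded list holds, and by that measure sls-2.9 was in the top of replicate 1 and not of replicate 2. In replicate 1 the top regions lay near 6 of the 18 genes, the 5 members and sls-2.5, against 3.37% of all genes. In replicate 2 they also lay near 6, which were all members but sls-2.9, with sls-2.3 and sls-2.6, against 3.65% of all genes.

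**Figure D2:**
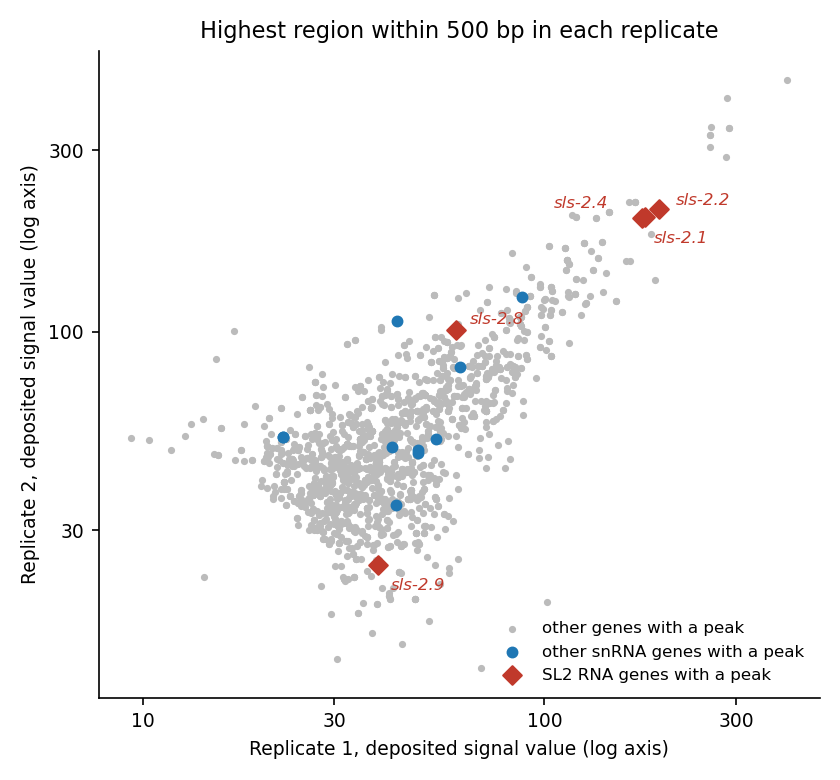
Highest signal within 500 bp of the start site in replicate 1 (x, log axis) and replicate 2 (y, log axis) for each gene with a peak and a region in every list. Red diamonds are the 5 SL2 RNA genes, blue circles the other snRNA genes and grey dots all other genes; sls-2.1, sls-2.4 and sls-2.2 sit together at 175 to 193 and 199 to 211, sls-2.8 at 60.1 and 101, and sls-2.9 at 38.5 and 24.3.

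At sls-2.1 a pair of peaks flanked the RNA gene. The higher one, at chrII:5844683-5844914, had its summit 39 bp upstream of the start. The lower one, at chrII:5844963-5845137 with a signal of 191 and rank 129, had its summit at +162, downstream of the 110 bp gene. Both replicates placed both summits within 5 bp of these positions, at -44 and +158 in replicate 1 and at -40 and +159 in replicate 2. The second summit had signals of 94.1 (rank 110) and 93.6 (rank 173).

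At sls-2.4, which lies at chrI:4172206-4172315 on the plus strand, the pattern was similar in the thresholded list. Summits lay at -23 (signal 399) and +177 (signal 238, rank 65), 200 bp apart, against 201 bp at sls-2.1. Replicate 2 gave the same pair, at -22 (signal 201) and +177 (88.7). Replicate 1 did not: its highest region there was 356 bp wide with the summit inside the gene at +92, and the next lay at +295 with a signal of 34.4 (rank 1333). The pair at sls-2.4 is therefore seen in 1 replicate and in the pooled lists.

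At sls-2.2 a single peak lay downstream of the gene, with the summit at +171 in the thresholded list and +169 in replicate 1. In replicate 2 the region was 344 bp wide and its summit was inside the gene at +95. No region of any list had its summit within 500 bp upstream of sls-2.2. The adjacent gene sls-2.3 points towards sls-2.2 from the other side of this peak, and the summit lay 504 bp from its start site, just beyond the limit. With a limit of 1000 bp sls-2.3 would count as a sixth gene through the peak of sls-2.2. At its own promoter sls-2.3 had a region at -59 with a pooled signal of 48.6 (rank 2827). That region ranked 9144 in replicate 1 (signal 16.1) and 1123 in replicate 2 (43.4), so the replicates placed it far apart.

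The sequences around the downstream summits are printed because they differ in composition from those at most peaks. They span 50 bases on each side, at chrII:5844977-5845077 (sls-2.1) and chrII:5543719-5543819 (sls-2.2), on the plus strand.
sls-2.1, summit at +162: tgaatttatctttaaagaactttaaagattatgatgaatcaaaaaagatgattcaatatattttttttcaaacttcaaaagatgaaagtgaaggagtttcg
sls-2.2, summit at +171: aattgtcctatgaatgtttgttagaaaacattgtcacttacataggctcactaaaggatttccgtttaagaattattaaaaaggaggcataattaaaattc

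In these windows 22.8% of bases were G or C at sls-2.1 and 28.7% at sls-2.2. The downstream summit of sls-2.4 had 33.7%. Over all 1794 peaks the median was 45.5%, and only 0.892% of peaks had a GC content as low as the window at sls-2.1, with 5.80% as low as that at sls-2.2 and 13.5% as low as that at sls-2.4. The upstream summits had 44.6% at sls-2.1 and 50.5% at sls-2.4, and the summits of sls-2.8 and sls-2.9 had 51.5% and 42.6%. A set of 5 short words was also searched on both strands within 50 bp of the summits. Of all peaks, 26.9% held the word GAGAGA, 16.7% held CGTCTC, 14.99% held ACGCAG, 14.2% held its overlapping neighbour GACGCA, and 10.03% held GAGCGC. None of the 5 was found at any of the 7 summits of the SL2 RNA genes. In the wider promoter of 300 bp, CGTCTC was present at the members sls-2.1, sls-2.4 and sls-2.2 and at sls-2.3, sls-2.6 and sls-2.7, which had no peak, against 9.32% of all promoters. GAGAGA was present at the member sls-2.8 and at sls-2.5, sls-2.13 and sls-2.17, against 18.5% of promoters. ACGCAG was present at the member sls-2.9 and at sls-2.3 and sls-2.6, as was GACGCA, against 6.94 and 7.03%. None of the 18 genes held GAGCGC there, against 4.64% of all promoters.

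None of the 7 summits in the thresholded list lay inside an SL2 RNA gene, although 3 lay within 50 bp of a start. Among the 1690 genes with a peak, 54 (3.20%) had at least 2 within 500 bp of their start sites. Of the 10 other snRNA genes with a peak, 3 did, which were F38E11.11, T11F9.15 and sup-6. Of the 65 snoRNA genes with a peak, 0 did. Of all 1794 summits, 82 (4.57%) had another within 250 bp. Regions of the pair at sls-2.1, the pair at sls-2.4 and the peak at sls-2.2 were 150 to 232 bp wide, while 91.8% of peaks had the width of 364 bp and 7.02% were narrower.

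The RNA genes of the shared leader are in part repeated in the genome. At sls-2.1 and sls-2.4 the repeated stretch over the gene covers part of the space between the paired summits. At sls-2.2 there was such a stretch and a single peak. Windows of 36 bases found at more than 1 place covered -18 to +78 at sls-2.1, -17 to +69 at sls-2.2 and -2 to +50 at sls-2.4. Inside the gene, 41.3% of such windows were found once at sls-2.1, 53.3% at sls-2.2 and 78.7% at sls-2.4, and with windows of 50 bases 50.8, 65.6 and 96.7%. Every window of either length in the 300 bp upstream of these 3 genes was found once. Some genes without a peak also held repeated stretches. At sls-2.3 the stretch was -18 to +78, and 41.3% of 36-base windows inside the gene were found once. That share was 48.6% at sls-2.10 and sls-2.11 and 33.3% at sls-2.12, but 100% at others such as sls-2.14 and sls-2.16. At sls-2.8 every window in the gene and upstream of it was found once, and its single peak had the usual width, with the summit near the start. At sls-2.9 some windows upstream of the gene were found more than once, and its peak also had the usual width. The sources used here give neither the read length nor the handling of reads that map to several places, and the part of the repeats in the shape and place of these peaks was not tested.

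**Figure D3:**
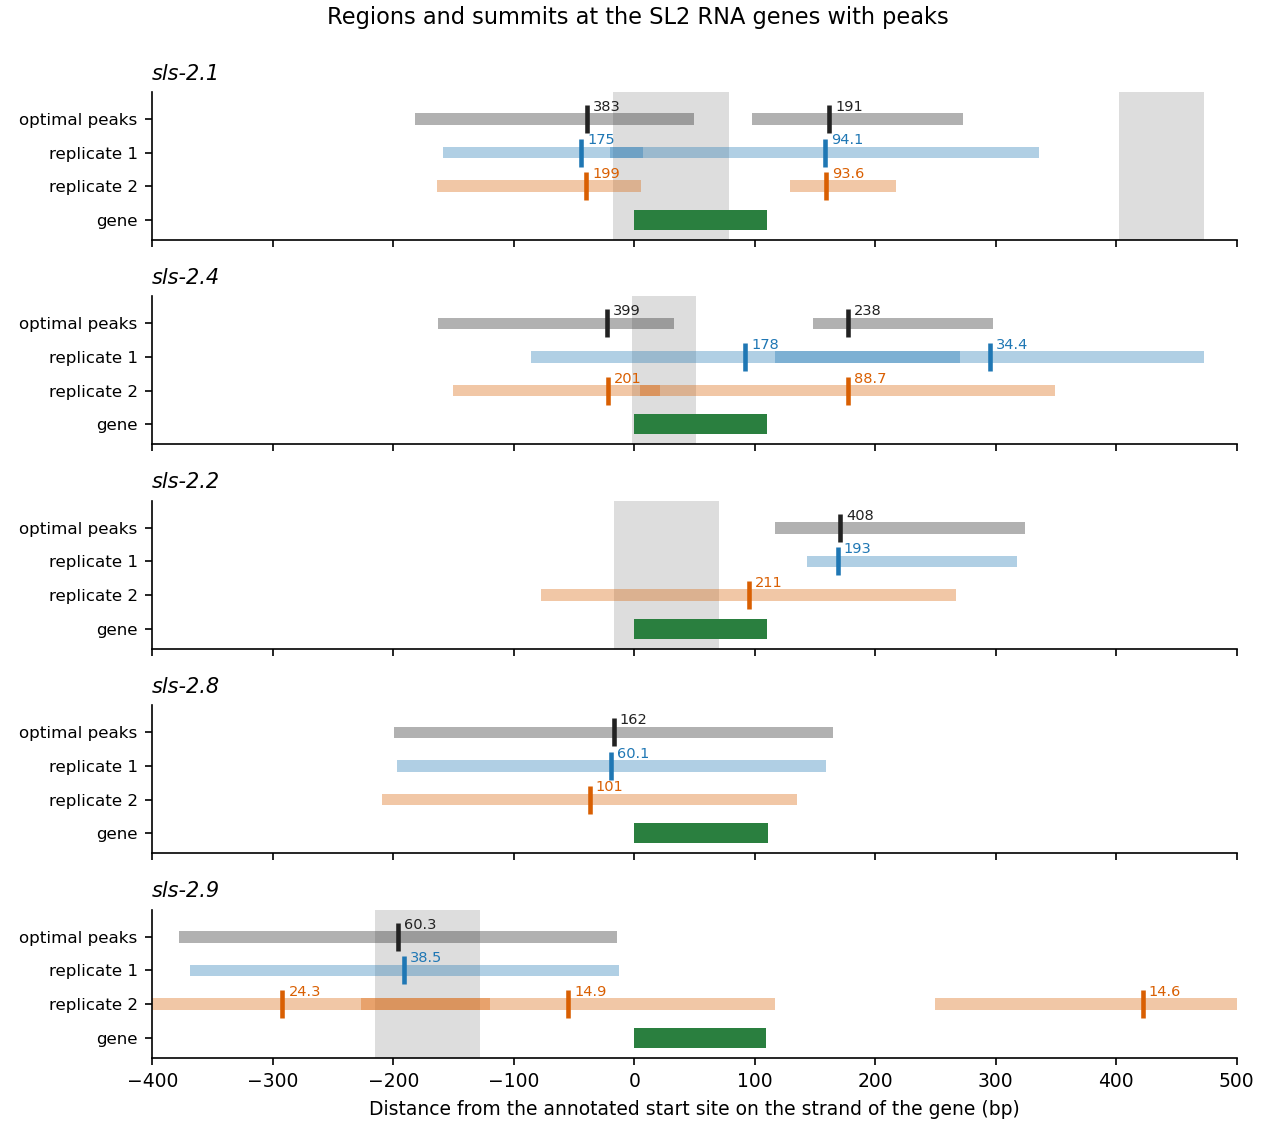
Regions (pale bars) and summits (ticks, with their signal values) at the 5 SL2 RNA genes in the thresholded list (black), replicate 1 (blue) and replicate 2 (orange), with the thresholded list labelled optimal peaks, against distance from the start site in bp; overlapping bars look darker and bars are drawn from -400 to +500 bp. The green bar is the RNA gene and grey bands are covered by 36-base windows that occur more than once in the genome: summits flank the gene at sls-2.1 (-39 and +162), the summit is at -17 at sls-2.8, and the peak of sls-2.9 lies over a repeated stretch upstream.

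The peak at sls-2.8 was centred on its promoter. It spanned chrIII:12250266-12250629 with the summit at -17, and the replicates gave -19 and -37. The same summit lay 212 bp upstream of Y75B8A.23 and 284 bp upstream of tim-1, the gene for the C. elegans homologue of the circadian and replication protein Timeless, so it counts for these protein-coding genes as well. The peaks at the other 4 genes lay 514 to 3035 bp from the nearest protein-coding start site. These nearest genes were ZK1248.17 for sls-2.1, the insulin-like peptide gene ins-13 for sls-2.2, egg-5, which encodes a pseudophosphatase needed at the oocyte-to-embryo transition, for sls-2.4, and sepa-1, which encodes an autophagy substrate of embryos, for sls-2.9. Genes annotated as noncoding RNA on the opposite strand overlap sls-2.2 (C17C3.23), sls-2.4 (R12E2.18) and sls-2.8 (Y75B8A.49), and strand cannot be read from these peaks.

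The peak counted for sls-2.9 was closer to other genes. The RNA gene lies at chrI:13297877-13297985 on the plus strand and the summit was 196 bp upstream of its start. That summit was inside a transfer RNA gene on the opposite strand, 64 bp from the start of the latter, and 22 bp from the start of the noncoding RNA gene M01E5.8. In replicate 1 the summit was at -191, and in replicate 2 the nearest regions were at -292 and -55. Of the 36-base windows in the 300 bp upstream of sls-2.9, 80.4% were found once, and the most repeated one occurred 28 times in the genome.

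The 13 sls-2 genes without a peak had weak regions or none. In the pooled list 12 of them had a region within 500 bp, with signals from 17.3 to 56.7 and a median of 28.6, and ranks from 1997 to 24490 of 30000. The highest after sls-2.6 and sls-2.3 were sls-2.7 (39.7), sls-2.14 (35.7), sls-2.18 (31.5) and sls-2.5 (28.6), followed by sls-2.15 (28.5) and sls-2.17 (24.2). Lower still were sls-2.10 (22.01), sls-2.12 (19.6), sls-2.11 (18.02) and sls-2.16 (17.3). No list held a region near sls-2.13. Replicate 1 had a region at 10 of the 13 and replicate 2 at 9. At sls-2.5 the replicates held different regions, at +193 in replicate 1 (rank 1640, signal 31.6) and at -148 in replicate 2 (rank 8815, signal 16.3). The region at sls-2.6 ranked 2941 (25.04) and 1142 (43.1), so each replicate put different genes of this set in its top regions.

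**Figure D4:**
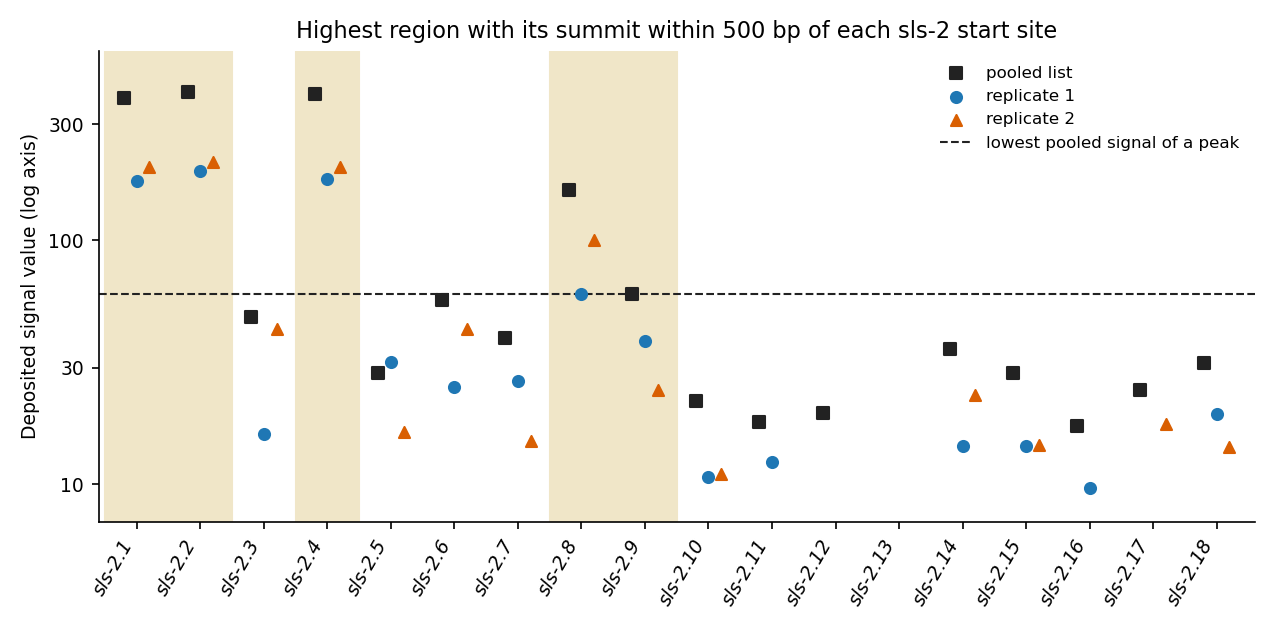
Signal value (log axis) of the highest region with its summit within 500 bp of each of the 18 sls-2 start sites, in the pooled list (squares), replicate 1 (circles) and replicate 2 (triangles). Shaded genes have a peak, and the dashed line is the lowest pooled signal of a peak (60.2); sls-2.1, sls-2.4 and sls-2.2 stand at 383 to 408, sls-2.8 at 162, sls-2.9 on the line, and the rest below it or with no region.

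Some of the genes without peaks also differed in where they lie. None of the 5 genes with peaks overlaps a protein-coding gene, and 7 of the other 13 lie in introns of one. These are sls-2.5, sls-2.16 and sls-2.18 in glr-2, which encodes a glutamate receptor subunit, sls-2.6 in hgo-1, which encodes homogentisate oxidase, sls-2.11 in daf-10, which encodes a ciliary transport protein, and sls-2.14 and sls-2.15 in W09D6.5. This difference was noticed in the annotation after the peaks were known and was not tested. Several of the 7 share a host and are not separate placements, and the share over all genes is not given here.

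Peaks at other small RNA genes are given beside those of the members, which were chosen for having a peak. None of the 12 annotated sls-1 genes, which carry the SL1 leader, had a peak or any region of the pooled list within 500 bp. Their place in a tandem repeat was not examined further. Of 99 other genes annotated as snRNA, 10 (10.1%) had a peak, with signals from 75.9 to 208. Their highest were R07E5.16 (208, summit at -66), F38E11.11 (144, at -69), T11F9.15 (138, at -38), sup-6 (115.2, at +190) and F32B5.9 (100.2, at -51). The rest were smy-1 (98.7), F54D8.7 (93.1), sup-39 and the overlapping mir-1831 (77.4 at the same peak), and Y57G11C.35 (75.9). All 10 were higher than sls-2.9, and 1, R07E5.16, was higher than sls-2.8. Of 346 snoRNA genes 65 (18.8%) had a peak, the highest with a signal of 277, which is below sls-2.1, sls-2.4 and sls-2.2. Peaks of these classes can also be shared with protein-coding genes. That highest snoRNA peak, of F54E7.10, counts for the ribosomal protein gene rps-12 and for ska-3, that of T11F9.15 for snr-4, which encodes an Sm protein, and that of smy-1 for C33A12.3. The share of the whole sls-2 family with a peak was 5 of 18 (27.8%), a number known when the genes were chosen.

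The place of the summit relative to the annotated start site differed between classes of genes. Whether these sites mark the start of transcription equally well in each class was not examined. The highest peak lay within 50 bp of the start at 3 of the 5 SL2 RNA genes and at 4 of the 10 other snRNA genes. The share was 32.3% of snoRNA genes with a peak, 10.9% of protein-coding genes with one and 15.9% of all genes with one. At sls-2.4, 1 of the 3 SL2 RNA genes counted, the highest region was at +92 in replicate 1 and at -22 in replicate 2. The median position of the highest peak was -23 bp for the SL2 RNA genes, where it ranged from -196 to +171 bp. It was -42 bp for other snRNA, -49 bp for snoRNA, -185 bp for protein-coding genes and -122 bp for all genes with a peak. Genes that share a peak and loci with shared sequence are not independent, and these differences were not tested.

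The genes most like each member were found by the distance between log2 signals in replicate 1, replicate 2 and the pooled list, among 1654 to 1657 other genes with a peak. For sls-2.1 and sls-2.2 this was R12E2.18 (distance 0.068 and 0.141), and for sls-2.4 it was C17C3.22 together with C17C3.23 (0.141). All are noncoding RNA genes counted at the peak of another member. Leaving out genes at any member's peak, a choice made after this was seen, 1 peak was nearest to all 3, at distances of 0.154, 0.240 and 0.175, with signals of 168, 220 and 378 in the 3 lists. It counts equally for the ribosomal protein gene rps-1 (summit at -240) and for the noncoding RNA genes F56F3.10 (+102) and F56F3.11 (-21). For sls-2.8 the nearest was vps-60, which encodes a component of membrane trafficking (distance 0.059, signals 61.1, 105 and 161), and for sls-2.9 it was C33A12.4 (0.046, signals 38.8, 25.1 and 60.8). The pooled list holds the reads of both replicates, so the 3 values are not independent.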

How the data were processed

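The labels describe 2 biological replicates of 1 group. Per their deposited notes, the authors supplied region lists in narrowPeak format on ce10 and ce11. These were a list per replicate and a pooled list, each of 30000 regions made from alignments and a control as input for IDR (irreproducible discovery rate), and the thresholded list called peaks here. No source used here names the aligner, caller, versions, read length or threshold. The deposited signal of each region is of unstated scale. The deposited −log10 q-value was read from the column order and served for no selection. No read counts were used, so depth is unknown and no interval covers counting error. The listed control was not used here.

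Summits are column 2 plus column 10 of the ce11 lists, written 1-based. A gene had a peak when any of its annotated start sites was at most 500 bp from a summit (Ensembl release 115, WBcel235, the same assembly as ce11). Every region end lay inside the reference chromosomes, and all 18 sls-2 symbols were also found in RefSeq. No region was identical in the replicate lists. Sequences came from the RefSeq genome, none being printed from the chromosome of sls-2.4 and sls-2.9. Alignments used Biopython 1.88, and tables used Python 3.11.15 with pandas 2.3.3. The step that joins summits to start sites was tested on simulated data. The members, gene lists and words were chosen with earlier results of these data known. Named were all sls-2 genes, the nearest protein-coding gene, snRNA genes with a peak above the lowest member, and the most similar gene to each member. No test was run. Alternatives for the gene counts were windows of 250 and 1000 bp, the first 897 peaks and overlap with the gene by 1 bp. Others were each replicate's first 1794 regions, and peaks overlapping these in both. For summit positions they were the pooled list, each replicate's full list and region midpoints, and for the number of peaks ce10.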

Additional observations from a re-analysis of the deposited data

How the results depend on the processing

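Of 18 sls-2 genes, 5 had a peak, and the count was 5 at 250 bp, 6 at 1000 bp (sls-2.3 added), 4 among the 897 highest peaks and 4 when a peak had to overlap the first 1794 regions of each replicate (sls-2.9 lost in both). Leaving out a replicate gave 6 in either case, with 4 or 5 of the members among them. Counting regions that overlap the RNA gene itself gave 3, sls-2.1, sls-2.4 and sls-2.8, since the peaks of sls-2.2 and sls-2.9 lie beside the gene. The count of other snRNA genes stayed between 7 and 10, with 8 to 10 when a replicate was left out. The median position of the summit nearest the start over the 5 members was -23 bp. In the full list of each replicate, not cut at the first 1794 regions, it ranged from -37 to -19 bp. There the sls-2.9 value of replicate 2 came from a region ranked 10744. From region midpoints the median was -66 bp, because several regions are not centred on their summits. The list held 1794 peaks on ce11 and 1781 on ce10. No paired analysis was possible because there is 1 group and no test. Library depth is unknown, and there are only 2 replicates. Of sls-2.9, sls-2.3, sls-2.5 and sls-2.6, each was placed among a replicate's first 1794 regions by a single library.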
